A study of Rattus norvegicus with 26 samples.

Results

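Heat shock and endoplasmic reticulum (ER) chaperones were taken as every probe set that the array's probe-to-gene table assigns to a single gene whose symbol begins with Hspa, Hspb, Hspd, Hspe, Hsph, Hsp90, Dnaj or Pdia, or is Calr or Canx. The rule gave 32 of the 4736 genes that have such a probe set, measured by 64 of the 8740 probe sets that are not controls. A further 10 probe sets name such a gene beside another gene, so Hspa8 and Hsp90aa1 were not analysed here. Of the 64, 53 probe sets of 26 genes were bright enough to be tested, meaning that at least 2 arrays read more than 3.71 log2, the median over every probe set and array. The 11 dim probe sets were those of Dnajb14, Dnajc1, Dnajc17, Pdia2, Hspa1l and Hspb2, none of which had a tested probe set, and extra probe sets of Hspa4, Hspa9, Hspb1 and Hspb6.

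The arrays held RNA of primary liver cells of female Sprague Dawley rats, cultured for 48 hours with TCDD, with PCB 126 or with vehicle. The vehicle, 0.5% DMSO, was the control, and the study asked how expression depended on the dose of each chemical. TCDD is a chlorinated dibenzo-p-dioxin and PCB 126 a coplanar chlorinated biphenyl, and both activate the aryl hydrocarbon receptor (AhR), a ligand-dependent transcription factor. There were 26 arrays, 11 from a first pool of 3 animals and 15 from a second pool of 3 animals, and each pool is 1 biological unit. Both pools had vehicle, TCDD at 0.01 pM, 1 pM, 0.1 nM, 10 nM and 316 nM, and PCB 126 at 1 pM, 0.1 nM, 10 nM, 1 µM and 10 µM. Pool 2 alone also had each chemical at 10 pM and 1 nM. No TCDD dose was micromolar, so 1 µM and 10 µM PCB 126 were set against the highest pair of TCDD doses, 10 nM and 316 nM, with 4 arrays on each side. No dose had more than 1 array per pool, nothing says that arrays of a pool came from separate animals, and p values therefore measure the spread between arrays. All levels are the authors' log2 values, and differences are on the same log2 scale, so a difference of 1 is a doubling.

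Chaperones bind unfolded protein and help it fold. In the ER of a hepatocyte, which secretes most plasma proteins, BiP (Hspa5) and GRP94 (Hsp90b1) hold new chains, calreticulin (Calr) and calnexin (Canx) hold those that carry sugars, and the protein disulfide isomerases (Pdia genes) set disulfide bonds. Unfolded protein in the ER raises these genes through the unfolded protein response, whereas heat and other damage in the cytosol raise the HSP70, HSP90, J protein and small heat shock genes through heat shock factors. J proteins (Dnaj genes) start the ATPase cycle of HSP70 proteins, Hspd1 and Hspe1 form the folding chamber of mitochondria, and HSP90 also holds the AhR itself in the cytosol before a ligand binds.

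Promoters of the member genes are shown because the ER stress element was found only among ER genes here, in fewer than all of them. RefSeq promoters on the GRCr8 assembly were matched for 28 of the 32 genes, and the 250 bases upstream of each start were searched on both strands. The ER stress element, CCAAT followed after any 9 bases by CCACG, which the unfolded protein response factor ATF6 binds together with NF-Y, was present in 4 of 28 member promoters against 0.0657% of all 33469 promoters. All 4 were promoters of ER genes (Hspa5, Hsp90b1, Calr and Canx), of 10 ER genes matched, so the other 6 ER promoters lacked it, and 0 of the 18 promoters of other members held it. The CCACG letters that end the element occurred in 16 of 28 member promoters against 27.2% of all, and CCAAT in 14 against 34%, both counted with those inside the element. The heat shock element, searched as GAA, TTC and GAA with 2 free bases between each, was in 3 member promoters, of Hspd1, Hspe1 and Hsph1, against 0.663% of all. The core of the AhR element, GCGTG, was in 14 of 28 against 25.9% of all, and the unfolded protein response element core, TGACGTG, in 3 against 1.54%. In Hsp90b1 and Calr every GCGTG match overlapped the CCACG end of an ER stress element, so it is no separate site. A match describes letters in this window and does not show binding. In the first 3 sequences the capitals mark ER stress elements, which read as the reverse complement where they begin with CGTGG. In the fourth they mark overlapping heat shock elements in the promoter of Hspe1, which overlaps that of Hspd1 on the opposite strand. The windows are chr3:38452766-38453015 (plus strand) for Hspa5, chr7:23012294-23012543 (minus strand) for Hsp90b1, chr19:40213117-40213366 (plus strand) for Calr and chr9:64084077-64084326 (plus strand) for Hspe1, printed 5′ to 3′.
Hspa5: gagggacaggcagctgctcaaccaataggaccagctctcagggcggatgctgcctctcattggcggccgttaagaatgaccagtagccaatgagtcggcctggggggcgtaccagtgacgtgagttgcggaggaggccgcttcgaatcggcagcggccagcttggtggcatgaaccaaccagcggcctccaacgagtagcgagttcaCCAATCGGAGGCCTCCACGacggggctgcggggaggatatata
Hsp90b1: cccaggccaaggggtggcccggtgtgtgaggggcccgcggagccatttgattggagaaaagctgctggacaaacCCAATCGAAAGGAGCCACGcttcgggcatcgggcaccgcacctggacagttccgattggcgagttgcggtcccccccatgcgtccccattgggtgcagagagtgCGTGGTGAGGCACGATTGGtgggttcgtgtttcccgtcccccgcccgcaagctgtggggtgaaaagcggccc
Calr: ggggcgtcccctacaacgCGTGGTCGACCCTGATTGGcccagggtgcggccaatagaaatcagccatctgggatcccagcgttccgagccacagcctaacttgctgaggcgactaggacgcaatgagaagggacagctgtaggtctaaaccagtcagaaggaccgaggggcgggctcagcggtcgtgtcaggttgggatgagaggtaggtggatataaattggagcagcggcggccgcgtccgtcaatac
Hspe1: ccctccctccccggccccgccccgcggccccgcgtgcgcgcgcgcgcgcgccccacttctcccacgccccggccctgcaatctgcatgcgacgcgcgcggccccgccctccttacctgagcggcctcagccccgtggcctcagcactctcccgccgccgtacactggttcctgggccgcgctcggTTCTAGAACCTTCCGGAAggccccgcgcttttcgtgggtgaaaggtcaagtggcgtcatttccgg

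The exposure and the cells were checked first. Cyp1a1, a cytochrome P450 that ligands of the AhR induce strongly, was at 3.45 and 3.28 on the vehicle arrays and was higher by 8.97 ± 1.43 (SE) at the top TCDD doses and by 8.93 ± 1.43 at micromolar PCB 126 (limma, adjusted p 0.00727 and 0.00561). The array labelled 1 pM PCB 126 in pool 2 read 10.8 for Cyp1a1, above the 7.91 of the 10 pM array of that pool and the 3.21 of the 1 pM array of pool 1. Without it 0 members were called in each comparison of chemicals, doses or slopes given below. Of 11 hepatocyte markers 10 were tested, and their mean levels ran from 8.10 to 14.2. Markers of other liver cells were tested for macrophages (4, 3.82 to 7.86), endothelium (2, 3.33 to 4.12), stellate cells and fibroblasts (10, 3.63 to 11.8) and bile duct cells (2, 4.64 and 5.83). In bulk RNA, fewer cells of a type and less RNA per cell cannot be told apart. The spike-in control probe sets averaged 10.005 to 11.8 on pool 1 arrays and 7.93 to 10.1 on pool 2 arrays. In pool 1 the highest means were 11.8 (0.1 nM TCDD), 11.7 (10 µM PCB 126) and 11.5 (316 nM TCDD). The other arrays of that pool were at 10.9 or below. The 10 µM PCB 126 array of pool 2 had the highest spike-in mean of its pool, 10.1, with the other arrays of that pool at 8.79 or below. The 10 pM TCDD array of pool 2 had an actin 3′ minus 5′ difference of 2.19, against 1.24 to 1.68 on the other arrays of its pool. The difference between micromolar PCB 126 and TCDD is given without the 10 µM array below for the compartments and both Hsph1 probe sets. It is also given for the brightest Canx probe set and for L18889_at.

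Of the 53 chaperone probe sets, none was called as different between micromolar PCB 126 and the top TCDD doses in the limma fit (adjusted p below 0.05 for 0 of 53; 0% of all 5197 tested probe sets were called in this comparison). The smallest adjusted p of a member was 0.979. Without the 2 arrays that stood apart, again 0 members were called and the member median of -0.07 became -0.03. At an unadjusted p below 0.05 there were 3 members, all lower with PCB 126, against 3.46% of all probe sets in either direction and 2.29% lower, and without limma's trend and robust options 0 members were called. Member differences ran from -0.61, for a probe set of Canx, to 0.41, for one of Hspa9, with that median against 0.03 over all probe sets, and 20 were positive and 33 negative. A missed threshold does not show that the chemicals act alike. The 95% interval of the difference lay within -1 to 1 for 49 of the 53 and within -0.5 to 0.5 for 23, with a median distance of 0.37 from the estimate to either bound, so changes below those bounds were not excluded.

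By compartment, the 20 ER probe sets had a median difference of -0.17, with 15 negative and 5 positive. The 9 probe sets of cytosolic HSP70 and HSP90 genes had a median of -0.07, the 13 of cytosolic J proteins -0.06, the 7 mitochondrial ones 0.03 and the 4 of small heat shock proteins 0.06. None of these groups had a called member. By pool, with no test of the difference, the ER median in pool 1 was -0.05, with 11 negative and 9 positive, and in pool 2, which holds the 10 µM array that stood apart, it was -0.20, with 14 negative and 6 positive. Without that array the ER median was -0.04, with 14 negative and 6 positive, and the medians of the other groups lay from -0.07 to 0.01. The ER median stayed below 0 with median centring (-0.22) and with quantile normalization (-0.16), while the mitochondrial one turned to -0.02 and -0.01. Probe sets of the same gene often disagreed in sign, in 11 of the 16 genes that had more than 1 tested probe set. All 5 probe sets of Canx, all 3 of Hsp90b1 and both of Hsph1 and Dnaja4 were lower with micromolar PCB 126, and all 3 of Dnaja2 were higher, each short of the threshold.

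**Figure D1:**
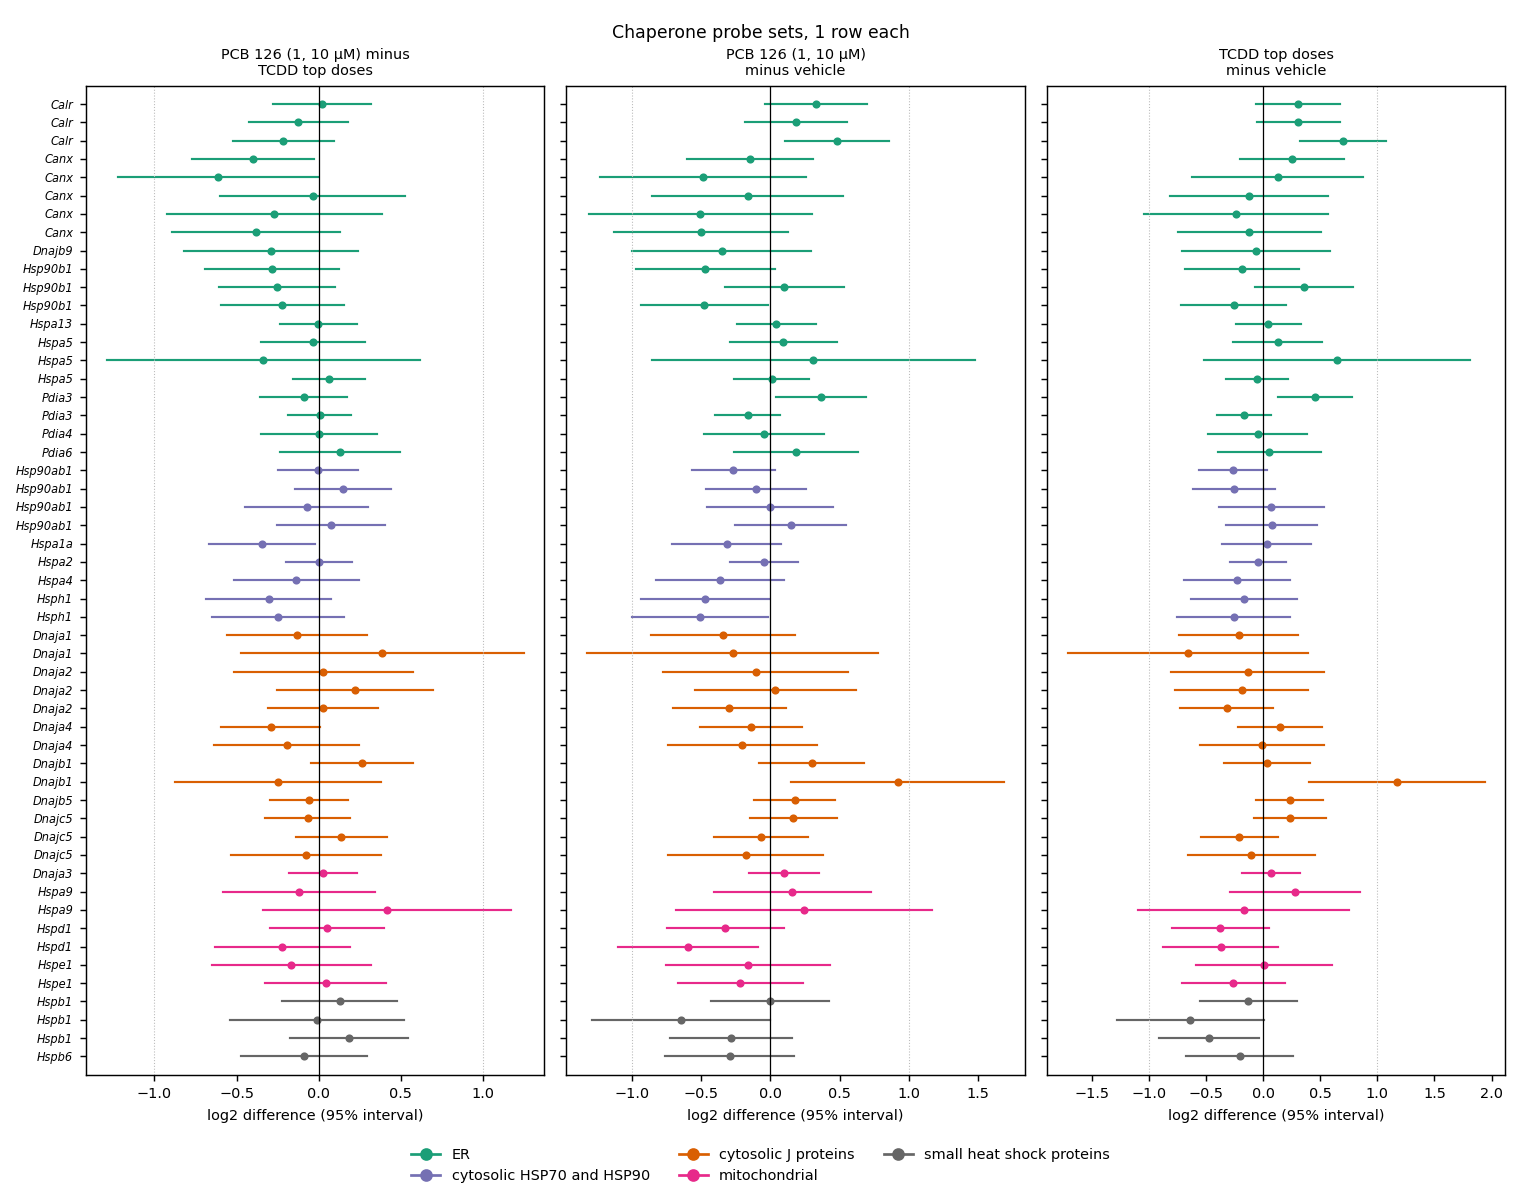
Log2 difference (x axis) with its 95% interval for each of the 53 tested chaperone probe sets (1 row each, coloured by compartment), for micromolar PCB 126 minus top TCDD doses (left), micromolar PCB 126 minus vehicle (middle) and top TCDD doses minus vehicle (right). In the left panel the points lie between -0.61 and 0.41, and no row of any panel passed an adjusted p of 0.05.

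Hspa5 encodes BiP, the HSP70 of the ER and the usual marker of ER stress. Its brightest probe set (M14050_s_at) read 9.57 with vehicle in pool 1 and 10.20 in pool 2. In pool 1 the values were 10.07 and 9.36 at 10 nM and 316 nM TCDD, and 10.15 and 9.52 at 1 µM and 10 µM PCB 126. In pool 2 they were 10.42 and 10.19 with TCDD, and 10.27 and 9.96 with PCB 126. The groups overlapped in both pools, and within each pool the highest dose of either chemical was below the next lower one. In pool 1 the highest-dose arrays of both chemicals were among those with high spike-in means, as given above. The difference between micromolar PCB 126 and the top TCDD doses was -0.04 ± 0.15 (SE, 95% interval -0.35 to 0.28, limma adjusted p 0.982). Against vehicle this probe set differed by 0.09 ± 0.18 with micromolar PCB 126 and by 0.13 ± 0.18 with the top TCDD doses, and its slopes on log10 dose were 0.01 ± 0.03 for each chemical. The 95% interval of the difference from vehicle ran from -0.30 to 0.48 with PCB 126 and from -0.26 to 0.51 with TCDD. The other Hspa5 probe sets differed between the chemicals by -0.34 (S63521_i_at) and 0.06 (S63521_r_at, dim). The first of these was at 0.46 in pool 1 and -1.14 in pool 2, where the 10 µM array read 5.04. Against vehicle it differed by 0.31 with PCB 126 (95% interval -0.85 to 1.48) and 0.65 with TCDD (-0.52 to 1.82).

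Hsp90b1 encodes GRP94, the HSP90 of the ER. Its brightest probe set (S69316_s_at) was at 9.65 in pool 1 and 10.20 in pool 2 with vehicle. At 10 nM and 316 nM TCDD it read 9.55 and 9.30 in pool 1 and 9.82 and 10.01 in pool 2. At 1 µM and 10 µM PCB 126 it read 10.01 and 9.22 in pool 1 and 9.41 and 9.17 in pool 2. In pool 2 both PCB 126 arrays were below both TCDD arrays, and in pool 1 the groups overlapped. The mean difference was -0.22 ± 0.18 (95% interval -0.60 to 0.15, limma adjusted p 0.979), made of 0.19 in pool 1 and -0.63 in pool 2, and it was -0.14 without the 10 µM array of pool 2. Along the PCB 126 doses the pool 2 series ran from 10.04 at 1 pM through 9.96, 9.88, 9.74, 9.71 and 9.41 to 9.17 at 10 µM, lower at each step. The array labelled 1 pM that starts this series had a Cyp1a1 value of 10.8, above the 7.91 of the 10 pM array. Its place in the order rests on that label. The pool 1 series was less ordered, at 10.15, 9.60, 9.45, 10.01 and 9.22. Its PCB 126 slope, -0.09 ± 0.03 per log10 unit of dose, had the smallest adjusted p of any member slope, 0.0638. The slope was called with quantile normalization (adjusted p 0.0485) and in pool 2 alone (-0.12, adjusted p 0.0428), and not without the 10 µM array of pool 2 (-0.07, adjusted p 0.332). Left out singly, the 1 µM array of pool 1 (-0.12, adjusted p 0.00429), the 0.1 nM TCDD array of pool 1 (adjusted p 0.049) and the 10 pM TCDD array of pool 2 (adjusted p 0.0356) also brought it past the threshold. The difference of this slope from the TCDD slope was -0.04 ± 0.04 (adjusted p 0.729).

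Calreticulin (Calr) is a calcium-binding lectin of the ER lumen. Its brightest probe set (X53363cds_s_at) had its lowest pool 1 value in the vehicle culture, 10.36, and read 10.27 in the vehicle culture of pool 2. It read 11.18 and 11.18 in pool 1 and 10.98 and 10.70 in pool 2 at 10 nM and 316 nM TCDD. It read 11.09 and 10.95 in pool 1 and 10.76 and 10.38 in pool 2 at 1 µM and 10 µM PCB 126. Every one of these high-dose arrays was above the vehicle array of its pool. So was every array at a lower dose, except the 10 pM TCDD array of pool 2. Against vehicle the top TCDD doses were higher by 0.70 ± 0.18 (95% interval 0.32 to 1.08, limma adjusted p 0.0545), the smallest adjusted p of any member against vehicle, and micromolar PCB 126 by 0.48 ± 0.18 (adjusted p 0.211). The TCDD value passed the threshold with quantile normalization (0.72, adjusted p 0.0342) and with a stricter filter on dim probe sets (0.70, adjusted p 0.0473). It also passed without the 2 arrays that stood apart (0.70, adjusted p 0.0443). Leaving out single arrays gave adjusted p from 0.0335, without the highest TCDD dose of pool 2, to 0.276, without the vehicle array of pool 1, and the values as deposited are not called. The other 2 Calr probe sets were higher by 0.31 each at the top TCDD doses, with adjusted p 0.588 and 0.589. On the 10 pM TCDD array of pool 2, the one with the large actin 3′ minus 5′ difference, this probe set read 8.94, and the other 2 read 9.39 and 7.79, each the lowest of all 26 arrays. Whether RNA quality has a part in that value was not tested. PCB 126 and TCDD differed by -0.22 ± 0.14 (95% interval -0.52 to 0.09).

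Calnexin (Canx), the membrane-bound partner of calreticulin, had 5 tested probe sets. The brightest (rc_AI235707_g_at) was at 9.55 and 10.38 with vehicle in pools 1 and 2. At the top TCDD doses it was at 9.13 and 9.69 in pool 1 and 10.45 and 10.11 in pool 2, and at micromolar PCB 126 at 9.38 and 9.30 in pool 1 and 10.25 and 8.91 in pool 2. The 10 µM array of pool 2 stood alone, since the other PCB 126 arrays of that pool were between 10.16 and 10.52. The difference between the chemicals was -0.38 ± 0.24 (95% interval -0.90 to 0.13, limma adjusted p 0.979), and -0.04 without that array. Another Canx probe set (L18889_at) was the only one of the gene for which both micromolar arrays were below both TCDD arrays in each pool, at 8.19 and 8.16 against 8.85 and 8.33 in pool 1 and 8.39 and 8.02 against 8.78 and 8.41 in pool 2. Its difference was -0.40 ± 0.17 (95% interval -0.77 to -0.03) with an adjusted p of 0.979, and -0.39 without the 10 µM array of pool 2.

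None of the disulfide isomerases had a called difference. Pdia3 (X12355_s_at), which works with calreticulin and calnexin on glycoproteins, read 10.03 and 10.39 with vehicle in pools 1 and 2. It read 10.56 and 10.40 in pool 1 and 10.96 and 10.75 in pool 2 at the top TCDD doses, and 10.45 and 10.10 in pool 1 and 11.18 and 10.57 in pool 2 at micromolar PCB 126. All 8 high-dose values were above the vehicle array of their pool, by 0.45 ± 0.15 on average with TCDD and 0.36 ± 0.15 with PCB 126 (limma adjusted p 0.19 and 0.3). In pool 2 this was not particular to high doses, since only the 10 pM TCDD array, at 10.12, was below vehicle. In pool 1 the vehicle array lay inside the range of the other arrays, 9.74 to 10.56. The second Pdia3 probe set, at 3.59 to 4.83 on all arrays, differed from vehicle by -0.17 with TCDD and -0.16 with PCB 126. Pdia4 and Pdia6 differed between the chemicals by 0.00 ± 0.17 and 0.13 ± 0.17. Dnajb9, a J protein of the ER that is a target of the unfolded protein response, read 6.19 at 1 µM and 4.58 at 10 µM PCB 126 in pool 2, where all other arrays lay at 6.01 or above, and 5.29 and 3.99 in pool 1. Hspa13, an HSP70 relative of the ER, differed between the chemicals by -0.0023 ± 0.11.

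**Figure D2:**
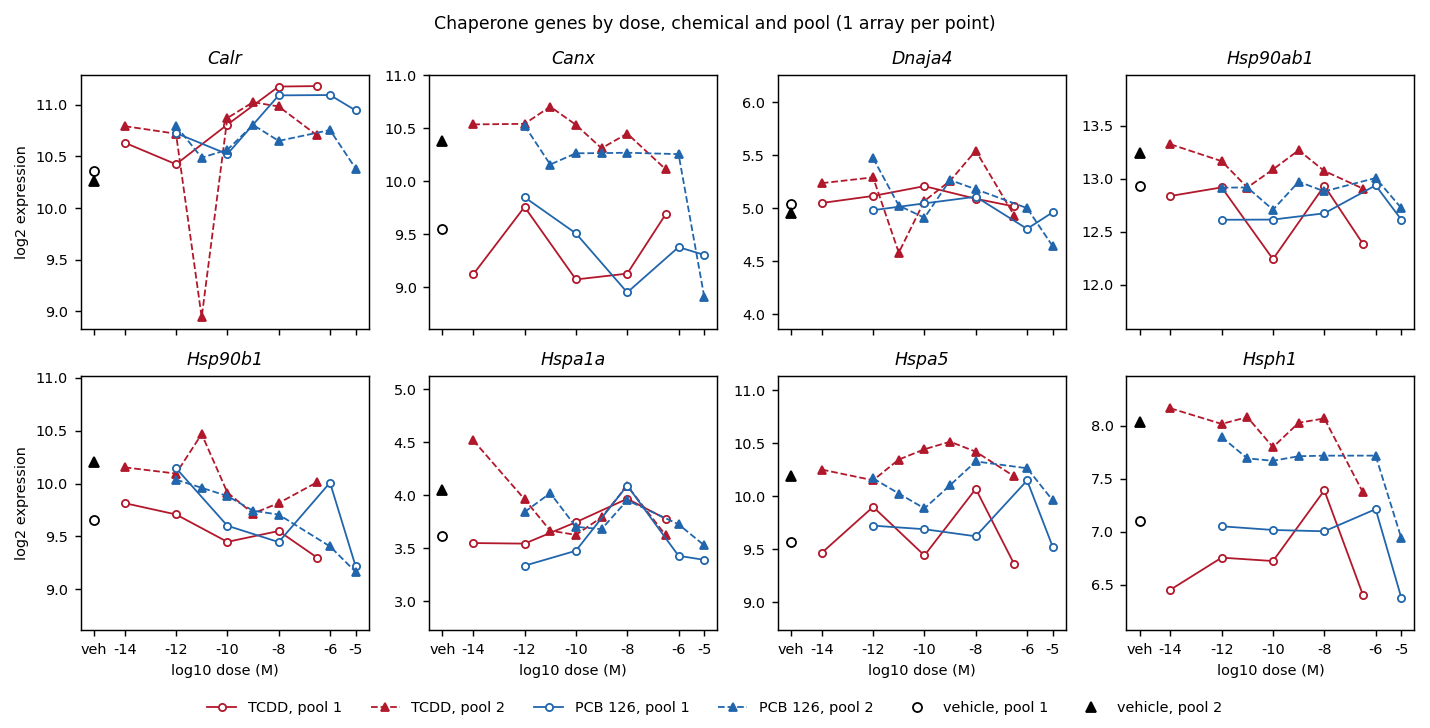
Log2 expression (y axis) of the brightest probe set of 8 chaperone genes against log10 molar dose (x axis, vehicle at left), 1 array per point, TCDD in red, PCB 126 in blue and vehicle in black, pool 1 as open circles and pool 2 as filled triangles. The Calr panel shows the 10 pM TCDD array of pool 2 at 8.94, and the Canx panel the 10 µM PCB 126 array of pool 2 at 8.91, each far from the rest of its series, while no gene separates the chemicals in both pools.

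Hsp90ab1 encodes the constitutive HSP90 of the cytosol. Its brightest probe set (S45392_at) read 12.93 and 13.25 with vehicle in pools 1 and 2. It read 12.93 and 12.39 in pool 1 and 13.07 and 12.91 in pool 2 at the top TCDD doses, and 12.94 and 12.62 in pool 1 and 13.01 and 12.72 in pool 2 at micromolar PCB 126. The groups overlapped in both pools, and the difference was -0.01 ± 0.11 (95% interval -0.25 to 0.24, limma adjusted p 0.999). Both chemicals were lower than vehicle by a like amount, -0.26 ± 0.14 for TCDD and -0.27 ± 0.14 for PCB 126, with adjusted p of 0.556 and 0.452. These 2 values share the vehicle arrays. The other 3 Hsp90ab1 probe sets did not repeat it, at 0.07, 0.07 and -0.25 with TCDD and 0.15, about 0 and -0.10 with PCB 126.

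Hspa1a, the inducible HSP70 of the heat shock response, was dim. Its probe set (Z75029_s_at) lay between 3.34 and 4.52 on all 26 arrays. At the top TCDD doses it read 3.97 and 3.78 in pool 1 and 4.09 and 3.62 in pool 2. At micromolar PCB 126 it read 3.43 and 3.39 in pool 1 and 3.73 and 3.53 in pool 2. The groups did not overlap in pool 1 and did in pool 2. The difference was -0.35 ± 0.15 (95% interval -0.67 to -0.03, limma adjusted p 0.979), and micromolar PCB 126 differed from vehicle by -0.32 ± 0.18, with an adjusted p of 0.544. Low values of this method are set close together, so a change of so dim a gene may be understated.

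Hsph1, an HSP110 that exchanges nucleotides on HSP70, had its brightest probe set (rc_AI236601_at) at 7.10 and 8.04 with vehicle in pools 1 and 2. In pool 1 it went from 7.39 at 10 nM to 6.41 at 316 nM TCDD and from 7.21 at 1 µM to 6.38 at 10 µM PCB 126. In pool 2 it went from 8.07 to 7.38 and from 7.72 to 6.94. In both pools the highest dose of either chemical was the lowest of its series, though in pool 1 the lowest TCDD dose was close, at 6.45. This order was noticed in the data and was not tested. The highest-dose arrays of pool 1 had high spike-in means, 11.5 with TCDD and 11.7 with PCB 126, and the part of this was not tested. The chemicals differed by -0.25 ± 0.19 (95% interval -0.65 to 0.15, limma adjusted p 0.979). That value was -0.10 in pool 1 and -0.39 in pool 2, and -0.15 without the 10 µM array of pool 2, where the second probe set described next was at -0.35. The second Hsph1 probe set (AA108277_at) was dimmer, and in each pool both micromolar values lay below both TCDD values, at 4.78 and 4.74 against 4.78 and 5.21 in pool 1 (the 4.78s differ in the next decimal) and 4.59 and 4.63 against 5.20 and 4.77 in pool 2. It is, beside the Canx probe set given above, the only member that was separated in the same direction in each pool, 2 of 53 below and 0 above, where 1.77% of all probe sets were below and 1.12% above. Pooled over both pools, 0 members were separated, against 0.308% of all below and 0.231% above.

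Among the J proteins of the cytosol, Dnaja4 (AA848268_at) read 5.09 and 5.02 in pool 1 and 5.54 and 4.93 in pool 2 at the top TCDD doses, and 4.81 and 4.96 in pool 1 and 5.0 and 4.64 in pool 2 at micromolar PCB 126. The groups were apart in pool 1 and overlapped in pool 2, and the difference was -0.29 ± 0.14 (95% interval -0.59 to 0.01, limma adjusted p 0.979). Dnajb1, the partner of inducible HSP70, had a probe set (rc_AA945704_at) that was higher than vehicle by 1.17 ± 0.36 at the top TCDD doses and 0.92 ± 0.36 at micromolar PCB 126, the largest positive member differences, with adjusted p of 0.138 and 0.253. The vehicle array of pool 2, at 4.83, was below all other arrays of that pool (5.94 to 7.07). In pool 1 the vehicle array, at 4.95, lay inside the range of the other arrays, 4.13 to 6.02. The TCDD value rested on the vehicle array of pool 2: without it the difference was 0.47 (limma adjusted p 0.885), and without that of pool 1 it was 1.87 (adjusted p 0.0386). It also passed the threshold, at 1.17, without either 0.1 nM TCDD array (adjusted p 0.043 and 0.0429). The other Dnajb1 probe set differed by 0.04 ± 0.18 and 0.30 ± 0.18.

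Among the mitochondrial chaperones, Hspd1 (X54793_at) read 9.69 and 9.36 in pool 1 and 10.63 and 10.61 in pool 2 at the top TCDD doses, and 9.47 and 9.88 in pool 1 and 10.72 and 10.42 in pool 2 at micromolar PCB 126, against vehicle at 10.14 and 10.76. Every high-dose array was below its vehicle array, with mean differences of -0.37 for TCDD and -0.33 for PCB 126 (limma adjusted p 0.555 and 0.574). This was not particular to high doses. In pool 1 the TCDD arrays at 0.01 pM and 0.1 nM (9.54 and 9.63) were also below vehicle. So were the PCB 126 arrays at 0.1 nM and 10 nM (9.94 and 10.01), while the 1 pM arrays of TCDD and PCB 126 were above (10.33 and 10.28). In pool 2 Hspd1 was above vehicle only with TCDD at 0.01 pM, 1 pM and 10 pM (10.89, 10.81 and 11.19). Its partner Hspe1 differed between the chemicals by 0.04 ± 0.17, a mean of opposite values: 0.50 in pool 1, where both micromolar PCB 126 values lay above both TCDD values, and -0.41 in pool 2, where both lay below. Hspa9, the mitochondrial HSP70, held the largest positive difference of the members, 0.41 ± 0.35 (95% interval -0.34 to 1.17), with a value of 5.97 at 316 nM TCDD in pool 1, where the other arrays of that pool were at 7.15 or above. That array had a high spike-in mean for its pool, 11.5, and the part of this in the value was not tested. The second Hspa9 probe set differed by -0.12 ± 0.22. Of the small heat shock proteins, which bind unfolded protein without using ATP, Hspb1 (rc_AA998683_g_at) was lower than vehicle by like amounts with both chemicals, -0.64 ± 0.30 and -0.65 ± 0.30 (adjusted p 0.463 and 0.377), and differed between them by -0.01 ± 0.25. Both differences from vehicle share the vehicle arrays. The vehicle array of pool 2, at 8.77, was the highest of its pool for this probe set. In pool 1 the vehicle array, at 7.64, lay inside the range of the other arrays, 6.65 to 7.80. The other 2 Hspb1 probe sets differed from vehicle by -0.13 and -0.47 with TCDD and by about 0 and -0.29 with PCB 126.

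Against vehicle, 0 of 53 members were called with micromolar PCB 126, where 3.04% of all probe sets were called, and 0 of 53 with the top TCDD doses, where 2.25% were called (limma, adjusted p below 0.05). At an unadjusted p below 0.05 there were 8 members with PCB 126, against 13.3% of all, and 4 with TCDD, against 10.9%. Member medians were -0.14 and -0.06, against -0.02 and -0.06 over all probe sets. As shares of the 53 members these are 15.1% and 7.55%, one a little above and the other below the share on the whole array. Tagln, a marker of stellate cells and fibroblasts, fell by 2.95 log2 with micromolar PCB 126 (adjusted p 0.00162), the only 1 of 10 tested markers of those cells to be called there. Its mean was 10.81 with vehicle, 9.06 at the top TCDD doses and 7.86 at micromolar PCB 126. It was thus lower with both chemicals, and the TCDD difference was not called. Lyz2, a macrophage marker, fell by 1.40 with the top TCDD doses (adjusted p 0.0229), 1 of 4 tested. Its mean was 8.55 with vehicle, 7.15 at those doses and 7.43 at micromolar PCB 126, where the difference was not called. The Lyz2 slopes were negative and called with both TCDD and PCB 126 (limma adjusted p 0.00915 and 0.0222). Fgg, fibrinogen of the hepatocyte, rose by 0.90 with the top TCDD doses (adjusted p 0.0248), 1 of 10. With micromolar PCB 126 its mean was also above vehicle, and that difference was not called. The median of those 10 hepatocyte markers was -0.30 with the top TCDD doses, against -0.06 over all probe sets. Of them, 5 were at an unadjusted p below 0.05, against 10.9% of all. The part of these cell markers in the chaperone values was not tested.

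The micromolar doses are also given singly, since their medians lay apart. At 1 µM PCB 126 the member median against vehicle was 0.04, and at 10 µM it was -0.25, while the medians over all probe sets were -0.06 and about 0. Against the highest TCDD dose, 316 nM, the member median was 0.19 at 1 µM and -0.09 at 10 µM. Again 0 members were called in each of these. Against 10 nM PCB 126, the micromolar mean gave 0 called members of 53 (0% of all called) and, at an unadjusted p below 0.05, 2 members, Hspa1a at -0.50 ± 0.18 and Hspa4 at -0.47 ± 0.22, against 3.19% of all. Of the 53, 39 were lower than at 10 nM. At 10 µM 38 of the 53 members were below the mean of their pool in pool 1 and 38 in pool 2. Such counts were not particular to 10 µM. In pool 2 there were 45 at 0.1 nM PCB 126, 38 at 10 pM PCB 126 and 37 at 316 nM TCDD, and in pool 1 there were 35 at 0.1 nM TCDD. On the 10 µM arrays the median over all probe sets was -0.05 in pool 1 and 0.03 in pool 2. The member median deviation from the pool mean was -0.09 on the 10 µM array of pool 1 and -0.30 on that of pool 2, the lowest of pool 2. In pool 2 that array also had the highest spike-in mean, as given above, and in pool 1 the 10 µM array had the second highest, 11.7. Across the arrays of a pool the member deviation and the spike-in mean had r = -0.49 (n = 11) and r = -0.64 (n = 15), with rho of -0.41 and -0.23, as a description of arrays that share the authors' normalization. Without the 2 arrays of each pool with the most extreme spike-in means r was -0.00328 in pool 1 and -0.09 in pool 2, so the relation rests on those arrays. Whether the spike-in signal has a part in the 10 µM values was not tested.

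**Figure D3:**
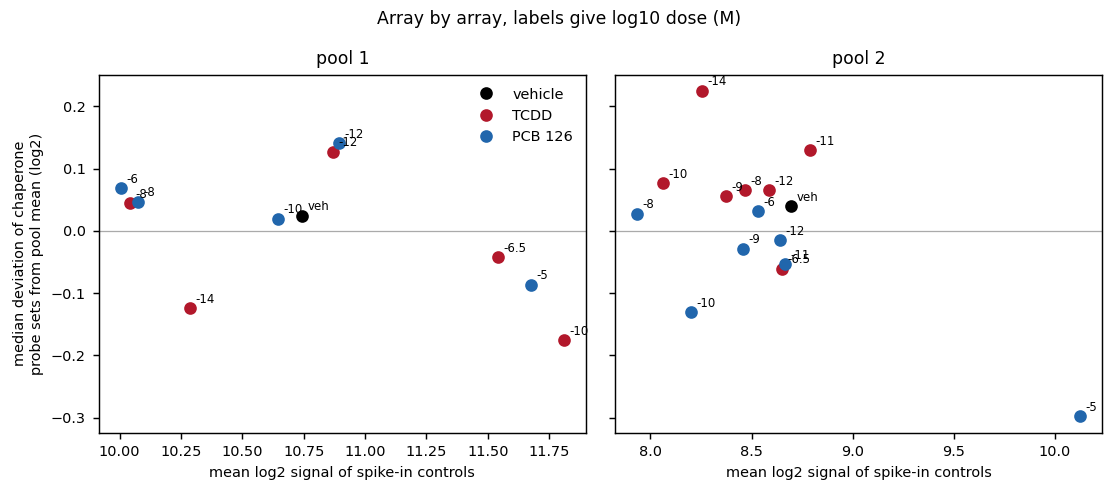
Median deviation of the 53 chaperone probe sets from their pool means (y axis, log2) against the mean log2 signal of the spike-in control probe sets (x axis), 1 point per array, labelled with the log10 molar dose, for pool 1 (left) and pool 2 (right). The 10 µM PCB 126 array of pool 2 lies alone at a spike-in mean of 10.1 and a deviation of -0.30.

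**Figure D4:**
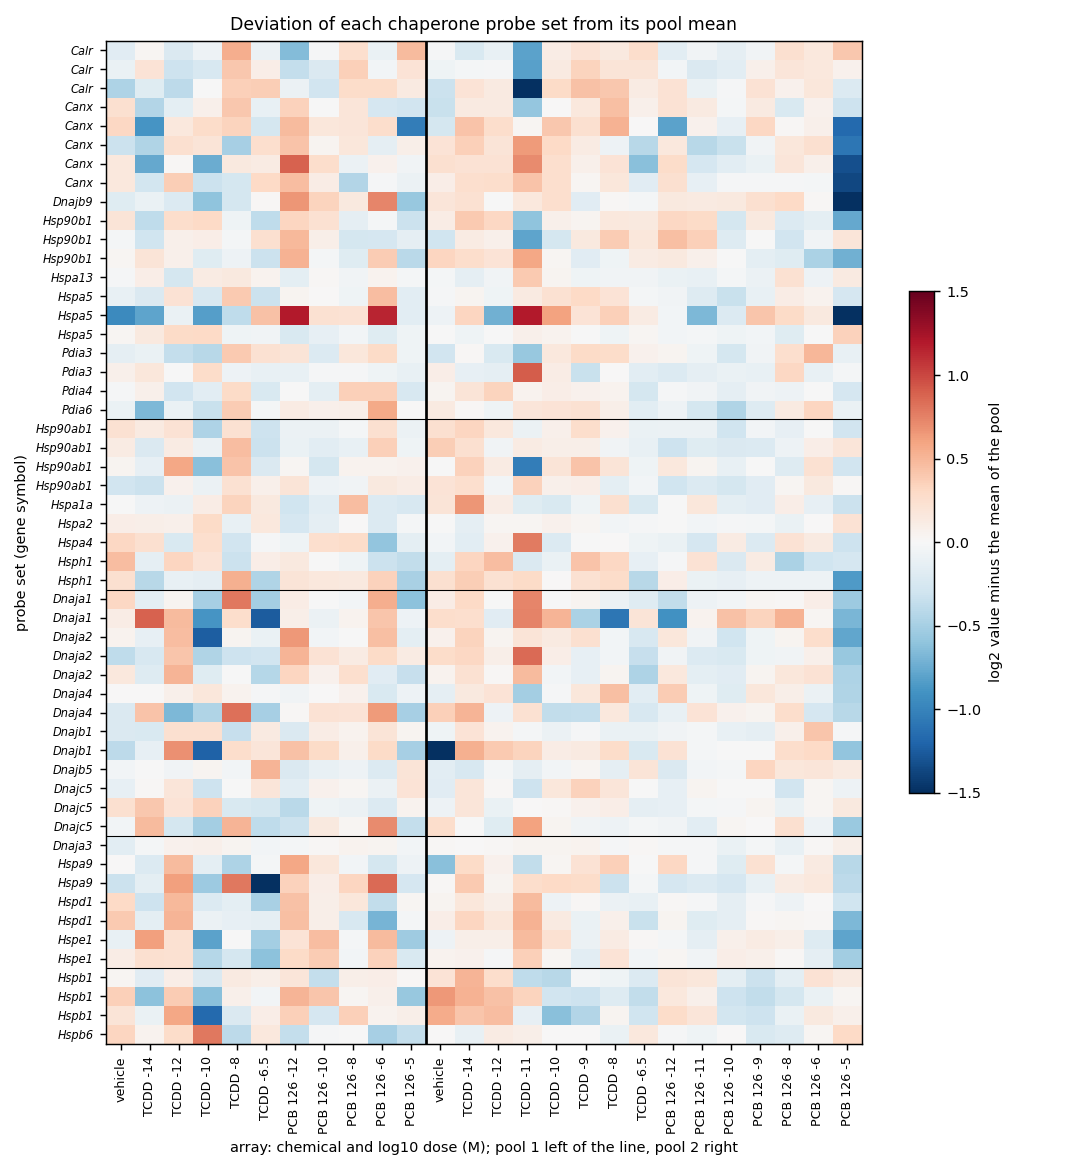
Deviation of each of the 53 tested chaperone probe sets (rows, grouped by compartment) from its pool mean, on each of the 26 arrays (columns, pool 1 left and pool 2 right of the line), with colours limited to -1.5 and 1.5 log2. The columns of 10 pM TCDD and 10 µM PCB 126 in pool 2 carry most of the deep colours of that pool, and no run of columns separates TCDD from PCB 126.

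At matched doses (1 pM, 0.1 nM and 10 nM in both pools) PCB 126 and TCDD differed for 0 of 53 members (limma, adjusted p below 0.05; 0% of all were called), with 2 at an unadjusted p below 0.05 against 7.06% of all. The member differences ran from -0.34 for Canx to 0.46 for Hspa5, with a median of -0.05 against -0.01 over all probe sets, and the 95% interval lay within -0.5 to 0.5 for 36 of the 53 and within -1 to 1 for 52. The pools pointed in opposite directions at 0.1 nM, where 33 of 53 members were higher with PCB 126 in pool 1 and 44 of 53 lower in pool 2. The 0.1 nM TCDD array of pool 1 had the highest spike-in mean of its pool, 11.8, and the lowest median deviation of the members from their pool means, -0.18, with 35 of 53 below. The part of that array in the pool 1 count was not tested. The change from 10 nM to higher doses was not called as different between the chemicals for any member (0 of 53, 0% of all called; 1 at an unadjusted p below 0.05, a probe set of Hsp90ab1, against 1.54%). That contrast was wide, with a median distance of 0.69 from estimate to bound, and the doses above 10 nM differ between the chemicals.

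Over the whole dose range, 0 of 53 members had a called slope with TCDD (limma, 3.1% of all called) or with PCB 126 (4.25% of all called), and 0 of 53 had a called difference of slopes (0% of all). At an unadjusted p below 0.05 there were 6 members with TCDD against 14.5% of all, 11 with PCB 126 against 16.9%, and 4 for the difference against 6.58%. Of the 11 with PCB 126, 9 had a negative slope, against 9.66% of all with a negative one, and they were 3 probe sets of Canx, 2 of Hsp90b1 and 1 each of Dnajb9, Hspd1, Hsph1 and Hspa9. The 2 positive slopes, against 7.22% of all, belonged to Calr and Hsp90ab1. Without the 10 µM array of pool 2, the negative slope of the brightest Canx probe set moved from -0.11 to -0.04, and without the 2 arrays that stood apart the member median moved from -0.02 to 0.00. No slope of a member was called as different between the pools (0 of 53 with 0% of all for TCDD, 0 of 53 with 0.0385% for PCB 126). At an unadjusted p below 0.05 these were 5 and 0 members, against 8.18% and 4.08%.

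Other genes of the same pathways were read from 3 lists. Of 26 listed genes of the unfolded protein and integrated stress responses 10 were tested, and 1, Nupr1, a stress-induced nuclear protein, was called in any of the 9 comparisons, with a PCB 126 slope of -0.23 ± 0.06 (limma adjusted p 0.0374). It averaged 8.41 with vehicle, 7.35 at the top TCDD doses and 7.16 at micromolar PCB 126. Of 34 listed genes of ER folding and translocation 16 were tested, and of 36 listed cochaperones and heat shock factors 15, and 0 of either list were called in any of the 9 comparisons. At an unadjusted p below 0.05 there were 0 to 3, 0 to 2 and 0 to 1 genes of these 3 lists in a comparison, where the share over all probe sets ran from 1.54% to 16.9%. The 3 were of the 10 unfolded protein response genes with micromolar PCB 126 against vehicle, where that share was 13.3%. For micromolar PCB 126 minus top TCDD doses the medians of the 3 lists were -0.04, 0.01 and 0.04, against 0.03 over all probe sets, and none had a gene at an unadjusted p below 0.05.

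Many members were called between the pools and none between the chemicals. These counts are not on an equal footing, as the median SE of a member was 0.10 for the pools and 0.17 for micromolar PCB 126 minus TCDD. Spike-in means and actin 3′ minus 5′ differences also differed by pool. The animals and the processing of the arrays therefore cannot be told apart. Pool 2 minus pool 1 was called for 40 of 53 members, 31 higher and 9 lower in pool 2, where 78.4% of all probe sets were called (39.6% higher and 38.8% lower). The member median was 0.35 against 0.03 over all probe sets. In the 11 dose groups with both pools, pool accounted for a median of 55.7% of a member's variance and dose group for 26.3%, against 52.3% and 25.9% over all probe sets, so the share is that of the array as a whole. The direction of the calls depends on the scaling. Centring each array on its median moved the median of all probe sets to 0.31 and gave 41 higher and 6 lower, quantile normalization gave 24 and 11, and no filter on dim probe sets gave 30 and 19 of 64. The members called were 88.7%, 66% and 76.6%, against 82.9%, 69.2% and 85.2% of all probe sets. The J proteins (9 higher and 2 lower of 13) and the mitochondrial group (6 higher and 0 lower of 7) were mostly higher in pool 2 as deposited, for example Hspe1 by 0.76 ± 0.10 and Dnaja2 by 0.83 ± 0.13. Their medians stayed above 0 with both scalings, at 0.42 and 0.52 with quantile normalization. The ER median of 0.20 did not, turning to -0.05 with quantile normalization, and that of cytosolic HSP70 and HSP90, 0.12, turned to -0.04.

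Probe sets of the same gene disagreed in the sign of the pool difference in 8 of 16 genes. The 3 tested Hspa5 probe sets differed by 2.33 ± 0.27, 0.52 ± 0.09 and -0.44 ± 0.06 (pool 2 minus pool 1, each called), and the lowest of these was a dim probe set at 3.23 to 4.14. For Hsp90b1 the differences were -1.34 ± 0.10, -0.68 ± 0.12 and 0.23 ± 0.11, the last one not called (limma adjusted p 0.0623). Dnajc5, Hspa5, Hsph1 and Pdia3 had probe sets called in opposite directions. For Hspa5 the lower call is that of the dim probe set, which needed pool 1 arrays to pass the filter. Each probe set reads its own stretch of the transcript, and the actin 3′ minus 5′ difference was 0.64 to 1.06 on pool 1 arrays and 1.24 to 2.19 on pool 2 arrays. The part of that difference in the disagreement was not tested. For only 2 of 53 members did the arrays of the pools not overlap at all, Hspd1 higher and a probe set of Hsp90b1 lower in pool 2, 1 each way, against 5.79% and 5.46% of all.

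**Figure D5:**
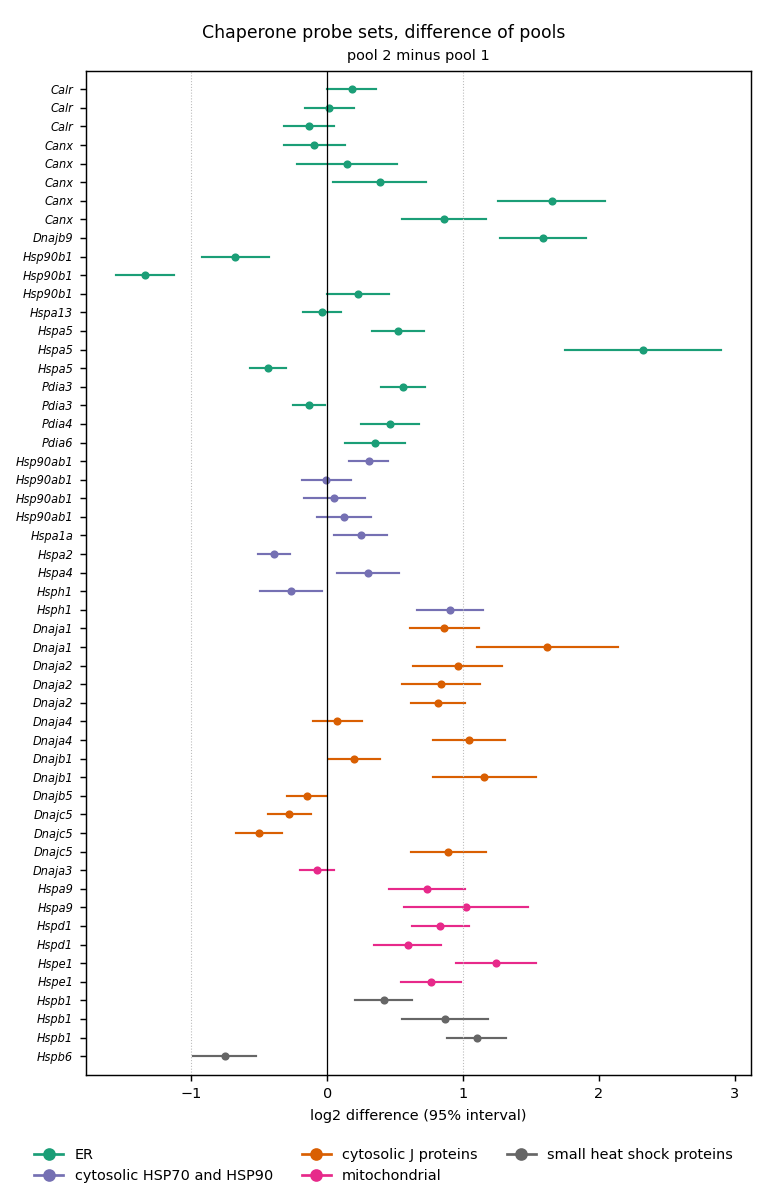
Log2 difference of pool 2 minus pool 1 (x axis) with its 95% interval for each of the 53 tested chaperone probe sets (1 row each, coloured by compartment). Rows of the same gene lie on both sides of 0, as for Hspa5 (2.33 to -0.44) and Hsp90b1 (0.23 to -1.34).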

How the data were processed

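Expression was measured on 26 RG-U34A arrays, and the values used are the authors' deposited log2 values, 1 column per array. They were made with GCRMA 2.8.0, per the submitters' processing notes, which also name RMA without its role. Settings: not given in the sources used here. GCRMA sets low signals close together. Groups and pools came from the labels. Probe sets were named by the platform table: 7006 have 1 symbol, of which 6985 matched a current rat gene by Entrez identifier and 0 were updated. The 59 control probe sets were left out, and 5197 were kept by the filter given above.

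Models were fitted in limma 3.58.1 (R 4.3.3), with eBayes moderation that allowed a mean-variance trend and robust variances, and p was adjusted by Benjamini-Hochberg over the 5197 probe sets in each comparison and a threshold of 0.05. The model of pool and 15 groups had 10 residual degrees of freedom, and that of pool, chemical and a slope per chemical had 20. The pool is a block because the labels give the animals it shares. Deviations of arrays of 1 pool from their group means correlated at 0.461 to 0.892 in all 55 pairs of groups. No 2 arrays were identical. The fit was tested on simulated data.

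The members and lists, marker lists included, were chosen with earlier results of these data known. Values per array are given for the 6 genes with the smallest p between micromolar PCB 126 and TCDD, for Hspa5, Hsp90b1, Calr, Canx and Hsp90ab1, and for others as examples chosen after their values were seen. A gene is named by its brightest probe set unless stated. The pool comparison, the slopes by pool the compartment medians by pool and the fits without the 2 arrays that stood apart, or without 1 of them, were added after seeing the data. Promoters are RefSeq's.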

Additional observations from a re-analysis of the deposited data

How the results depend on the processing

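No member of 53 was called under any alternative for micromolar PCB 126 minus top TCDD doses, minus vehicle or minus 10 nM, for the matched doses, for the change above 10 nM or for the difference of slopes. The alternatives were median centring, quantile normalization, no filter and a stricter filter, limma without trend and robust, fits without the 2 arrays that stood apart, and leaving out each array in turn (0 to 0 called). Single micromolar doses were tried only where micromolar PCB 126 was set against TCDD, vehicle or 10 nM. Of these comparisons, only micromolar PCB 126 minus top TCDD doses was also fitted in each pool alone. For top TCDD doses minus vehicle 1 member, Calr, was called with quantile normalization (1), with the stricter filter (1) and without the 2 arrays that stood apart (1), and leaving out single arrays gave 0 to 1, Calr or Dnajb1. For the TCDD slope leaving out single arrays gave 0 to 1, Dnaja1 without the 316 nM array of pool 2. For the PCB 126 slope 1 member was called with quantile normalization, Hsp90b1, and 2 in pool 2 alone, Hsp90b1 and Hsp90ab1. Leaving out single arrays gave 0 to 4 for that slope, with 4 without the 1 µM array of pool 1 (Calr, Dnajb9 and 2 probe sets of Hsp90b1; 7.55% of the members against 7.14% of all) and 3 without the 10 pM TCDD array of pool 2 (5.66% against 5.04%). The cause of these changes was not tested. Pool 2 minus pool 1 gave 37 to 41 calls when single arrays were left out, 69.8% to 77.4% of the members against 76.2% to 78.4% of all. Without the replicate block (the pool), 0 members were called in each of the 9 comparisons, where the block also gave 0. Over all probe sets that fit called 39 with micromolar PCB 126 and 27 with top TCDD doses against vehicle, and 39 and 56 for the TCDD and PCB 126 slopes, against 158, 117, 161 and 221 with the block. Of 624 values of named genes under alternatives other than leaving out an array, 5 were called and 49 changed sign without being called.

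With 1 array per dose and pool and 2 pools of animals, small differences could not be detected. Signals near the lower limit, as for Hspa1a and Hspa2, carry little information on change.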
